A study of Mus musculus with 8 samples.

Results

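The AP-1 and immediate early genes described here were the 10 genes Fos, Fosb, Jun, Junb, Egr1, Ier2, Ier3, Atf3, Dusp1 and Zfp36, picked by gene symbol out of 28460 genes in the deposited table. All 10 were found, and all passed the filter on low counts, which left 16059 genes for testing. RNA was sequenced from spermatogenic cells of mouse testes at postnatal day 12, when germ cells of the first wave have begun meiosis, in 4 Brg1 cKO libraries and 4 Brg1 WT libraries, all on a mixed strain background. Brg1 cKO stands for a conditional knockout of Brg1, the chromatin remodelling ATPase encoded by Smarca4, and Brg1 WT for the wild-type genotype. The Cre driver, the deleted exons and the number of animals behind a library do not appear in the labels, while the series' design text calls the 4 libraries of a genotype biological replicates. The testes had been digested with collagenase and trypsin and sieved, and the labels name no cell sort.

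Immediate early genes are transcribed within minutes of a signal, without new protein synthesis, because the factors that switch them on, such as SRF with its ETS partners and CREB, already sit in the cell and are activated by kinases. AP-1 is the pair formed by a FOS family and a JUN family protein through their basic leucine zippers, and it carries the signal on to later genes. Other members end the response: Dusp1 removes phosphate from MAP kinases, and Zfp36 binds AU-rich elements and speeds the decay of short-lived mRNAs. Transcripts of this class are also known to rise when tissue is dissociated with enzymes, a step that all 8 libraries shared, and undigested tissue was not analysed here.

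Because immediate early genes are known to be induced through shared promoter elements, 5 of their promoters are shown, each covering the 200 bases just before the annotated start. The sequences are those of RefSeq on GRCm38.p6, in which 8 of the 10 genes matched by symbol and Egr1 and Ier2 did not. Fos, Fosb and Junb are shown as AP-1 genes with higher levels in Brg1 cKO, and Dusp1 and Zfp36 as genes that end the response and did not pass the test. Capitals mark matches on either strand to the cyclic AMP response element (CRE) TGACGTCA, to its core TGACG, which lies within the CRE on both strands, to the AP-1 site TGANTCA, to the EGR site GCGGGGGCG, to TATAAA, and to the CArG box bound by SRF. The Fos window lies at chr12:85473690-85473889 on the plus strand, and the others lie on the minus strand at chr7:19310046-19310245 for Fosb, chr8:84978749-84978948 for Junb, chr17:26508473-26508672 for Dusp1 and chr7:28379229-28379428 for Zfp36.
Fos: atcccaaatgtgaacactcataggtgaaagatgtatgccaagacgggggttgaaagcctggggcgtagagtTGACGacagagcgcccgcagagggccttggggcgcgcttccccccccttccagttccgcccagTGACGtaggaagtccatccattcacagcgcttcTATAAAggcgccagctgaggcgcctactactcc
Fosb: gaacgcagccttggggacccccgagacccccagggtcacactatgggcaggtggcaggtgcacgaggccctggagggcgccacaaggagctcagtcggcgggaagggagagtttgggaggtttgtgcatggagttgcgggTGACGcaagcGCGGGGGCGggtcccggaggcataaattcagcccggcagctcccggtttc
Junb: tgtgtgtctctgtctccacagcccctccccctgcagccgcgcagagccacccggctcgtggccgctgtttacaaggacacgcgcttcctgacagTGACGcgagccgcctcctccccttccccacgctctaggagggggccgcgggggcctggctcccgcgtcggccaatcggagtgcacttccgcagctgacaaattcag
Dusp1: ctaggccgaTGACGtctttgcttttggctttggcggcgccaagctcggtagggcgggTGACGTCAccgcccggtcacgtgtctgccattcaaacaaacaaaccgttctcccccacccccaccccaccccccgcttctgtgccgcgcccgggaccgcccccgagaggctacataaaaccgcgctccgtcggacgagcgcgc
Zfp36: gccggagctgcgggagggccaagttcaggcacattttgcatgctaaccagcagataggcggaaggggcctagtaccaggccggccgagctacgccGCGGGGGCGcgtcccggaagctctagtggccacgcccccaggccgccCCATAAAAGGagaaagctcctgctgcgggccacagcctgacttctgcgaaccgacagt

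The core TGACG was present in 5 of the 8 member windows (Fos, Fosb, Junb, Atf3 and Dusp1), and in 15.7% of 32851 promoter windows of the same length. The full CRE was found in Dusp1 alone of the 8, beginning 143 bases before the start, and in 1.47% of all windows. Zfp36 held the single CArG box of the 8 windows, which was present in 1.18% of all windows. EGR sites stood in Fosb and Zfp36 and in 2.36% of all windows. TATAAA was matched in Fos, 33 bases before the start, and in 9.96% of all windows, and TGANTCA in no member and in 5.48% of all windows. Jun and Ier3 held none of these letters within 200 bases. Bases farther before the start were not searched, nor were Egr1 and Ier2. A gene without a match here may thus still hold the site elsewhere.

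Library totals ran from 20456743 to 32596038 estimated counts. Smarca4 had 129, 122, 111 and 122 CPM (counts per 1e6, on totals scaled by TMM) in Brg1 cKO replicates 1 to 4, against 347, 357, 347 and 338 CPM in Brg1 WT replicates 1 to 4, a log2 fold change of -1.52 in the direction of the labels (adjusted p = 6.78e-06, edgeR quasi-likelihood test). Members were well counted: the lowest count of any member was 625, for Ier3 in Brg1 WT replicate 1, where counting error alone is 4.0%. Germ cell markers were detected in every library (Ddx4 averaged 178 CPM in Brg1 cKO and 214 CPM in Brg1 WT), and so were markers of Sertoli cells, the somatic cells that nurse germ cells (Clu averaged 4125 CPM in Brg1 cKO and 2808 CPM in Brg1 WT). Brg1 WT replicates 1 and 2 stood apart in a list of 12 pachytene and spermatid genes, of which 10 were tested, with a summed level of 360 and 316 CPM, against 249 and 231 CPM in Brg1 WT replicates 3 and 4 and 170 to 198 CPM in Brg1 cKO. That list was chosen after values were seen, so this contrast is a description only.

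The comparison of genotypes asked whether these transcripts differ when Brg1 is deleted. The 4 FOS and JUN family genes among the members, Fos, Fosb, Jun and Junb, and the early response gene Ier2 were higher in Brg1 cKO, by 1.37-fold to 1.58-fold. Egr1, Ier3, Atf3, Dusp1 and Zfp36 had positive differences that did not pass the test. Thus 5 of 10 members rose and none fell, where 20.6% of the 16059 tested genes were called in either direction and 8.79% were called higher (edgeR quasi-likelihood test, adjusted p under 0.05). The median log2 fold change, Brg1 cKO over Brg1 WT, was 0.57 over the 10 members and 0.013 over all tested genes. In the 5 members that rose, every Brg1 cKO library lay above every Brg1 WT library, a pattern that 11.1% of tested genes showed. Taken as a sum, the 10 genes made up 0.637%, 0.537%, 0.550% and 0.560% of all counts in Brg1 cKO replicates 1 to 4, against 0.280%, 0.388%, 0.464% and 0.449% in Brg1 WT replicates 1 to 4.

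These calls depended on the libraries and on the level taken as no change. Without Brg1 WT replicates 1 and 2 no member was called (2.66% of tested genes were), with 5 at an unadjusted p under 0.05 and a member median of 0.34. None was called without Brg1 WT replicate 2 alone, where the member median was 0.54. In that fit the calls over all genes also fell, from 3312 to 1777. Relative to the median of 28 Sertoli cell markers, which was itself 0.37 on the log2 scale, no member was called, none had an unadjusted p under 0.05, and the member median was 0.20. With that scaling 8450 genes were called over all, 75 of them higher.

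**Figure D1:**
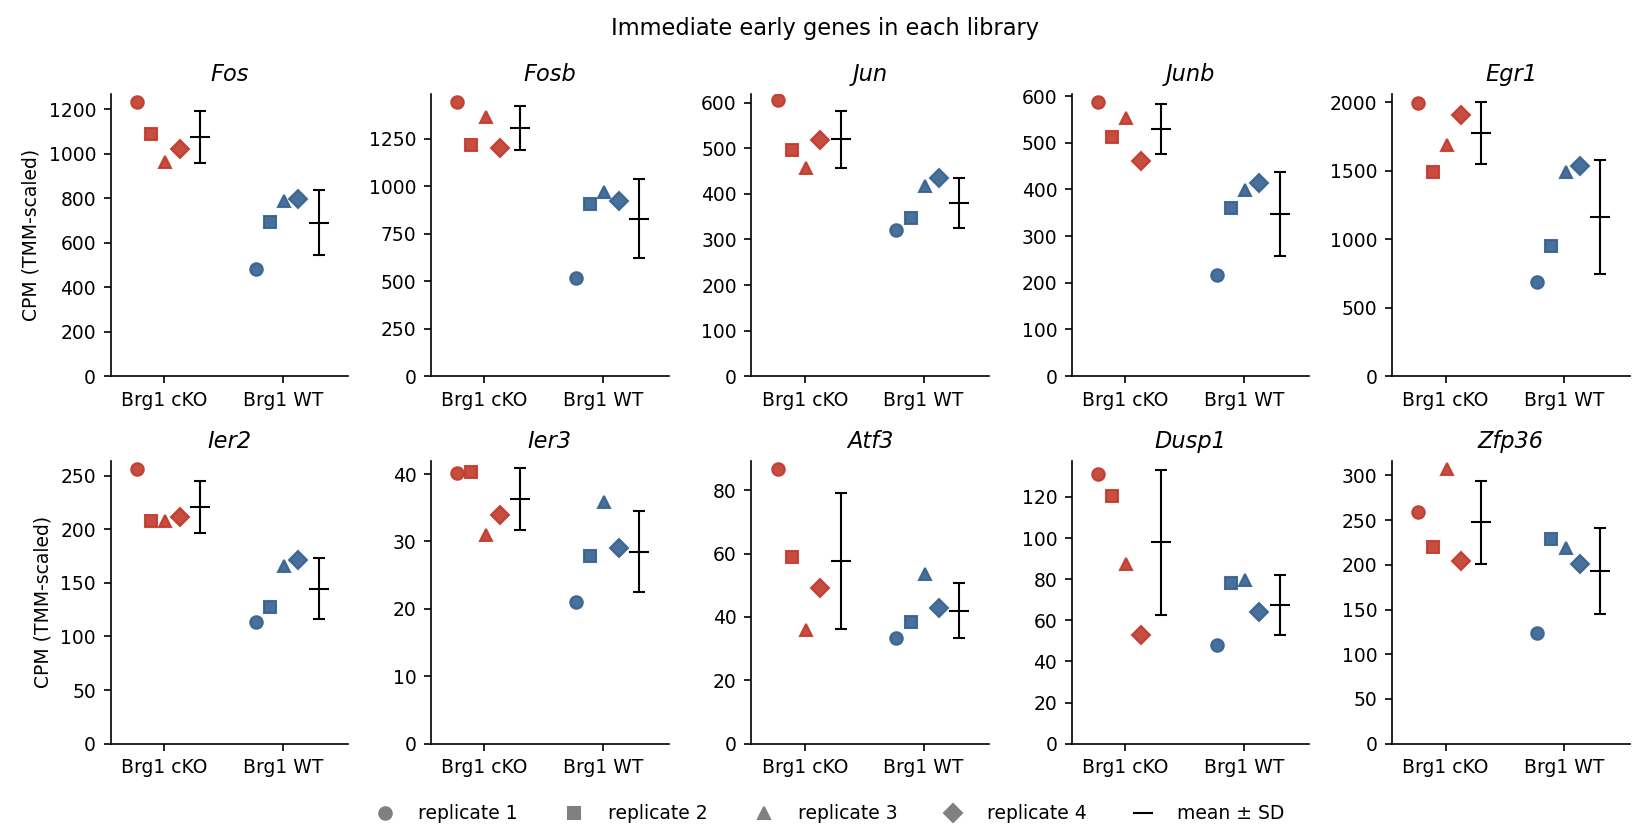
Levels of the 10 genes in CPM (vertical axes from 0) in each Brg1 cKO library (red, left) and each Brg1 WT library (blue, right), with mean ± SD in black (n = 4 each). The genotypes do not overlap for Fos, Fosb, Jun, Junb and Ier2, and Brg1 WT replicate 1 is the lowest Brg1 WT library in all 10 panels.

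Among the FOS family genes, Fos had 1234, 1091, 962 and 1020.0 CPM in Brg1 cKO replicates 1 to 4, against 484, 695, 789 and 795 CPM in Brg1 WT replicates 1 to 4. The lowest Brg1 cKO library thus lay above the highest Brg1 WT library, and the difference was 0.64 ± 0.15 on the log2 scale (SE, 4 libraries each; edgeR adjusted p = 0.0202). Fosb, whose protein can take the place of FOS in AP-1, had 1442, 1215, 1363 and 1204 CPM in Brg1 cKO, against 518, 905, 968 and 920.2 CPM in Brg1 WT. With a difference of 0.66 ± 0.18 on the log2 scale (SE; edgeR adjusted p = 0.0323) it had the largest value of the 10, and Brg1 WT replicate 1 lay far below the other Brg1 WT libraries. The ratio of Fosb to Fos counts, which does not depend on how libraries are scaled, was 1.11 to 1.42 in Brg1 cKO and 1.07 to 1.30 in Brg1 WT, with overlapping ranges.

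Of the JUN family, Jun, the main partner of FOS, had 606, 496, 457 and 518 CPM in Brg1 cKO, against 321, 348, 416 and 434 CPM in Brg1 WT. The groups were separate but close, differing by 0.45 ± 0.12 on the log2 scale (SE, 4 libraries each; edgeR adjusted p = 0.0264). Junb, which activates AP-1 targets more weakly than Jun, had 587, 513, 553 and 462 CPM in Brg1 cKO, against 217, 361, 399 and 414 CPM in Brg1 WT. It differed by 0.60 ± 0.19 on the log2 scale (SE) with an adjusted p = 0.0497, at the edge of the threshold. The ratio of Junb to Jun counts was 0.89 to 1.21 in Brg1 cKO and 0.68 to 1.04 in Brg1 WT. The ratio of Jun to Fos counts was 0.45 to 0.51 in Brg1 cKO and 0.50 to 0.66 in Brg1 WT. In both ratios the genotypes overlapped, Jun to Fos only where Brg1 cKO replicate 4 and Brg1 WT replicate 2 crossed.

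Ier2, a nuclear protein gene of the early response, had 256, 207, 208 and 212 CPM in Brg1 cKO, against 113, 128, 166 and 171 CPM in Brg1 WT. It had the smallest adjusted p of the members (0.0172, edgeR, log2 fold change 0.61 ± 0.14 SE, n = 4 each). The zinc finger factor Egr1 was more variable, with 1997, 1494, 1691 and 1909.5 CPM in Brg1 cKO, against 688, 948, 1494 and 1534 CPM in Brg1 WT. Brg1 WT replicate 4 lay above the lowest Brg1 cKO library, with which Brg1 WT replicate 3 was level, and although the difference of 0.60 was as large as that of Junb, its 95% interval ran from 0.049 to 1.16 and its adjusted p was 0.11. Atf3, a stress-induced bZIP factor that mostly represses, had 86.6, 59.0, 35.8 and 49.0 CPM in Brg1 cKO, against 33.3, 38.4, 53.6 and 42.7 CPM in Brg1 WT. Apart from Brg1 cKO replicate 1 its libraries were mixed between genotypes, and the interval of the log2 fold change was -0.14 to 1.05 (adjusted p = 0.243, edgeR). The log2 fold change of Atf3 was 0.45 with all libraries and 0.19 without Brg1 cKO replicate 1.

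Among the members, Dusp1 and Zfp36, which restrain signalling or its transcripts, showed overlapping genotypes, as did Ier3. Dusp1 had 131, 120.2, 87.4 and 52.8 CPM in Brg1 cKO, against 48.1, 78.1, 79.4 and 63.9 CPM in Brg1 WT. Brg1 cKO replicate 4 lay within the Brg1 WT range, and the log2 fold change was 0.54 with an interval of -0.12 to 1.20 (adjusted p = 0.211, edgeR). The ratio of Dusp1 to Egr1 counts was 0.0657, 0.0805, 0.0517 and 0.0276 in Brg1 cKO replicates 1 to 4, against 0.0700, 0.0824, 0.0532 and 0.0417 in Brg1 WT replicates 1 to 4. Zfp36 had 259, 220.0, 307 and 204 CPM in Brg1 cKO, against 123, 229, 218 and 201 CPM in Brg1 WT. Leaving aside Brg1 WT replicate 1, the Zfp36 libraries of the genotypes lay within 201 to 307 CPM (log2 fold change 0.36, interval -0.10 to 0.82, adjusted p = 0.23, edgeR). Without Brg1 WT replicate 1 this log2 fold change was 0.20. Ier3, linked to cell survival, had 40.1, 40.2, 30.9 and 34.0 CPM in Brg1 cKO, against 21.1, 27.9, 35.9 and 29.1 CPM in Brg1 WT, a log2 fold change of 0.35 with an interval of 0.0031 to 0.70 (adjusted p = 0.133, edgeR). Without Brg1 WT replicate 1 the log2 fold change of Ier3 was 0.23. These intervals include differences as large as those of the AP-1 genes, so the data do not show that the 5 uncalled members behaved otherwise.

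**Figure D2:**
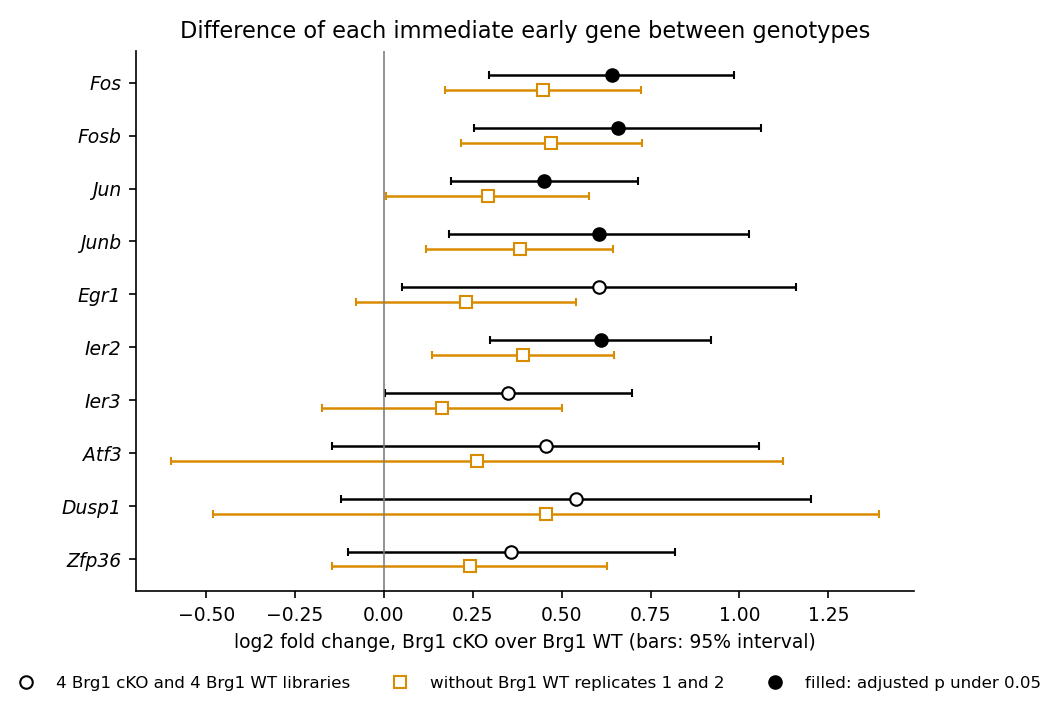
Log2 fold change of each gene, Brg1 cKO over Brg1 WT (horizontal axis), with its 95% interval, from all 8 libraries (black circles) and without Brg1 WT replicates 1 and 2 (orange squares), filled where the adjusted p was under 0.05. All 10 values are positive in both fits, and Fos moved to 0.45 and Egr1 to 0.23 in the smaller one.

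Without Brg1 WT replicates 1 and 2, 4 libraries of Brg1 cKO were compared with 2 of Brg1 WT. In that fit Fosb differed by 0.47 (95% interval 0.22 to 0.73, adjusted p = 0.0653, edgeR), Fos by 0.45 (0.17 to 0.72, adjusted p = 0.0865) and Ier2 by 0.39 (0.13 to 0.65, adjusted p = 0.0983). Egr1 moved most, to 0.23 with an interval of -0.078 to 0.54, and Ier2, Ier3 (0.16), Atf3 (0.26), Junb (0.38) and Jun (0.29) also shrank by over 1.5 times. The spread among Brg1 WT libraries was the wider of the genotypes for these genes: the median SD of log2 CPM over the 10 members was 0.18 in Brg1 cKO and 0.34 in Brg1 WT, where the 6475 tested genes at least as abundant as the lowest member had medians of 0.12 and 0.096. Brg1 WT replicate 1 was the lowest of its genotype for 10 of 10 members, and Brg1 WT replicate 4 the highest for 5 and replicate 3 for 4. In Brg1 cKO, replicate 1 was highest for 8 of 10, and replicates 3 and 4 were lowest for 4 each.

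Levels can be compared between genes only per length, for which CPM was divided by the length in kb of the longest protein-coding transcript of GENCODE M21. In this unit the members had the same order in both genotypes. Fos was highest, with 511 ± 55.7 CPM per kb in Brg1 cKO and 328 ± 68.8 in Brg1 WT (SD, n = 4 each), followed by Egr1 (395 ± 50.4 in Brg1 cKO and 260.0 ± 92.8 in Brg1 WT), Fosb (345 ± 30.7 and 219 ± 55.1 in the same order) and Junb (292 ± 29.8 and 192 ± 49.8). Jun followed with 163 ± 19.7 CPM per kb in Brg1 cKO and 119 ± 17.0 in Brg1 WT, Ier2 with 145 ± 15.7 in Brg1 cKO and 94.99 ± 18.8 in Brg1 WT, and Zfp36 with 88.6 ± 16.4 in Brg1 cKO and 69.1 ± 17.1 in Brg1 WT. Dusp1 (49.2 ± 17.8 CPM per kb in Brg1 cKO and 33.9 ± 7.35 in Brg1 WT), Ier3 (32.1 ± 4.09 and 25.2 ± 5.35 in the same order) and Atf3 (29.0 ± 10.9 and 21.2 ± 4.35) were lowest. Within Brg1 cKO the libraries of neighbouring genes did not overlap between Fos and Egr1, Junb and Jun, Ier2 and Zfp36, and Zfp36 and Dusp1, whereas the neighbours within Egr1, Fosb and Junb, within Jun and Ier2, and within Dusp1, Ier3 and Atf3 overlapped. Within Brg1 WT, only Zfp36 and Dusp1 were separate among neighbours. Fosb has 6 protein-coding transcripts of 1090 to 3782 bases and Egr1 has 2 of 3036 to 4484 bases. The places of both thus depend on the isoform used. With its shorter transcript Egr1 would stand above Fos, and so would Fosb with its shortest.

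Alongside the members, Sertoli cell markers were more often called higher than lower, and germ cell markers only lower. Over all tested genes 20.6% were called in either direction and 8.79% were called higher. Of 28 tested Sertoli cell markers 11 were called higher and 1 lower, their median log2 fold change was 0.37, and their summed level was 10025 to 12959 CPM in Brg1 cKO and 7962 to 9987 CPM in Brg1 WT. Peritubular and stromal markers summed to 2817 to 4417 CPM in Brg1 cKO and 1962 to 3265 CPM in Brg1 WT, with 4 of 18 called higher and 1 lower. Among Leydig cell markers, where 3 of 11 tested were called higher and Cyp2a4 was at 0 in all libraries, the sums were 84.7 to 177 CPM in Brg1 cKO and 74.7 to 107 CPM in Brg1 WT. Endothelial markers summed to 213 to 532 CPM in Brg1 cKO and 202 to 327 CPM in Brg1 WT, and macrophage markers to 47.7 to 108 CPM in Brg1 cKO and 48.8 to 80.3 CPM in Brg1 WT, where edgeR gave none of these 12 and 16 genes an adjusted or an unadjusted p under 0.05. Germ cell markers had 7 of 20 lower and none higher, with sums of 2751 to 3549 CPM in Brg1 cKO and 3574 to 4442 CPM in Brg1 WT. Of 30 markers of undifferentiated spermatogonia 13 were called lower and 3 higher, with sums of 947 to 1169 CPM in Brg1 cKO and 1119 to 1272 CPM in Brg1 WT. In addition, 7 of the 10 tested pachytene and spermatid genes were lower. These counts depended on the scaling. Relative to the germ cell median, 24 Sertoli cell markers were called higher and none lower, 14 peritubular and stromal markers higher and 1 lower, and 7 spermatogonia markers higher and 7 lower. Relative to the Sertoli cell median, 1 Sertoli cell marker was called higher and 5 lower, 1 peritubular or stromal marker higher and 1 lower, and 21 spermatogonia markers lower. The part of these markers in the difference of the immediate early genes was not tested. In such bulk samples fewer cells of a type and less RNA per cell cannot be told apart.

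**Figure D3:**
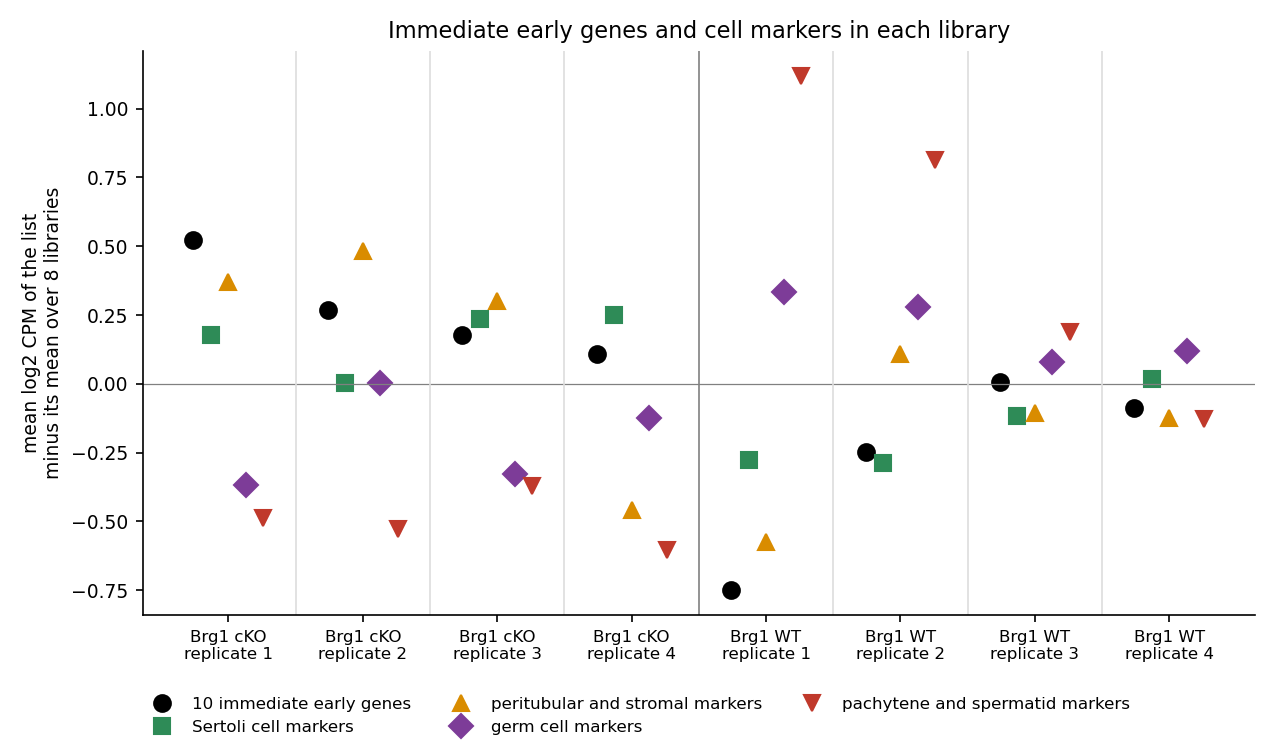
Mean log2 CPM of the 10 immediate early genes (black circles) and of marker lists in each library, minus the list's mean over the 8 libraries (vertical axis), Brg1 cKO left and Brg1 WT right. The immediate early genes are lowest in Brg1 WT replicate 1, at -0.75, where pachytene and spermatid markers are highest, at 1.12, and peritubular and stromal markers lowest, at -0.57. The pachytene and spermatid list was chosen after values were seen.

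Marker lists also varied between the libraries of a genotype. Relative to their means over all libraries, the 10 genes stood at 0.52, 0.27, 0.18 and 0.11 on the log2 scale in Brg1 cKO replicates 1 to 4, against -0.75, -0.25, 0.0052 and -0.087 in Brg1 WT replicates 1 to 4. Sertoli cell markers stood at 0.18, 0.0026, 0.24 and 0.25 in Brg1 cKO, against -0.28, -0.29, -0.12 and 0.016 in Brg1 WT. In Brg1 cKO replicate 2 the members stood at 0.27 and Sertoli cell markers at 0.0026. Peritubular and stromal markers stood there at 0.48, Leydig cell markers at 0.80 and endothelial markers at 0.91. In Brg1 cKO replicate 4 the members stood at 0.11 and Sertoli cell markers at 0.25. Peritubular and stromal markers stood there at -0.46, Leydig cell markers at -0.78 and endothelial markers at -0.60. Pachytene and spermatid markers stood at -0.49, -0.53, -0.37 and -0.60 in Brg1 cKO, against 1.12, 0.81, 0.19 and -0.13 in Brg1 WT. This list, chosen after values were seen, was highest in the libraries where the members were lowest. Macrophage markers stood at 1.01, 0.39, -0.037 and -0.41 in Brg1 cKO, against -0.85, -0.54, 0.49 and -0.058 in Brg1 WT. Like the members, they were highest in Brg1 cKO replicate 1 and lowest in Brg1 WT replicate 1. The part of these differences between libraries in the result was not tested. Mitochondrially encoded transcripts took 8.96%, 9.45%, 8.34% and 7.42% of counts in Brg1 cKO replicates 1 to 4, against 6.47%, 7.58%, 9.32% and 9.57% in Brg1 WT replicates 1 to 4, lowest where the members were lowest.

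The 5 genes outside the list whose centred log2 CPM lay closest to the members' mean profile over the 8 libraries, among 5934 genes ranked, were Rbms1, Anxa5, F2r, Bcl2 and Armcx3. Their mean absolute difference from the profile was 0.045, 0.051, 0.058, 0.064 and 0.067 on the log2 scale. Rbms1, an RNA-binding protein gene, had 78.5, 65.2, 63.2 and 64.2 CPM in Brg1 cKO, against 31.8, 47.9, 53.2 and 53.5 CPM in Brg1 WT. Bcl2, which encodes a survival protein, had 13.7, 10.9, 10.3 and 10.4 CPM in Brg1 cKO, against 5.87, 7.36, 8.98 and 7.82 CPM in Brg1 WT. Since they were chosen for this likeness, no test of it is given.

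In the wider group of bZIP genes related to AP-1, of 17 listed genes 14 were tested, and 5 rose, none fell and 9 were not called, with a median log2 fold change of 0.34. The share called over all tested genes was 20.6%, with 8.79% called higher. Jund, the JUN protein found in resting cells, averaged 421 ± 30.9 CPM in Brg1 cKO and 325 ± 36.0 CPM in Brg1 WT (SD, n = 4 each), a change of 0.37 on the log2 scale (adjusted p = 0.0207, edgeR). Jdp2, a repressor that dimerises with JUN, averaged 8.25 ± 0.72 CPM in Brg1 cKO and 5.68 ± 0.99 CPM in Brg1 WT. The MAF genes Maf, Maff and Mafk were 1.90-fold, 1.48-fold and 1.35-fold higher, with overlap between the genotypes for Maf and Mafk. Fosl1, the FOS relative FRA-1, had 3.0 to 4.5 CPM in Brg1 cKO and 3.5 to 4.7 CPM in Brg1 WT, and Fosl2 had 162 to 213 CPM in Brg1 cKO and 74.9 to 151 CPM in Brg1 WT with an adjusted p = 0.0825.

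Among 47 further immediate early genes, all tested, 12 rose, 1 fell and 34 were not called, with a median log2 fold change of 0.37 and 43 positive values. Of all tested genes 20.6% were called and 8.79% were called higher. Cyr61, which encodes a secreted matrix protein, rose most, to 707 ± 219 CPM in Brg1 cKO, against 328 ± 106 CPM in Brg1 WT (SD over 4 libraries each), a difference of 1.11 ± 0.28 on the log2 scale (SE; edgeR adjusted p = 0.0293). Nr4a1, an orphan nuclear receptor induced by many signals, averaged 799 ± 156 CPM in Brg1 cKO and 476 ± 128 CPM in Brg1 WT. Dusp6, a phosphatase specific for ERK, had the smallest adjusted p of this list (0.00759), with 196 ± 19.0 CPM in Brg1 cKO and 131 ± 17.3 CPM in Brg1 WT. Rhob, Mcl1, Csrnp1, Klf6, Gadd45g, Nfkbia, Tob1, Sgk1 and Btg1 were 1.37-fold, 1.36-fold, 1.48-fold, 1.37-fold, 1.39-fold, 1.30-fold, 1.26-fold, 1.25-fold and 1.20-fold higher in that order. Klf10, a TGF-beta early response factor, was the exception, with 64.7 ± 8.92 CPM in Brg1 cKO and 84.4 ± 5.18 CPM in Brg1 WT, a direction that turned positive relative to the median of undifferentiated spermatogonia markers. Relative to the Sertoli cell median none of these AP-1 and immediate early genes was called higher and 8 were called lower, with Btg1, Sgk1 and Tob1 turning negative. Without Brg1 WT replicates 1 and 2 edgeR called none, with 21 at an unadjusted p under 0.05.

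**Figure D4:**
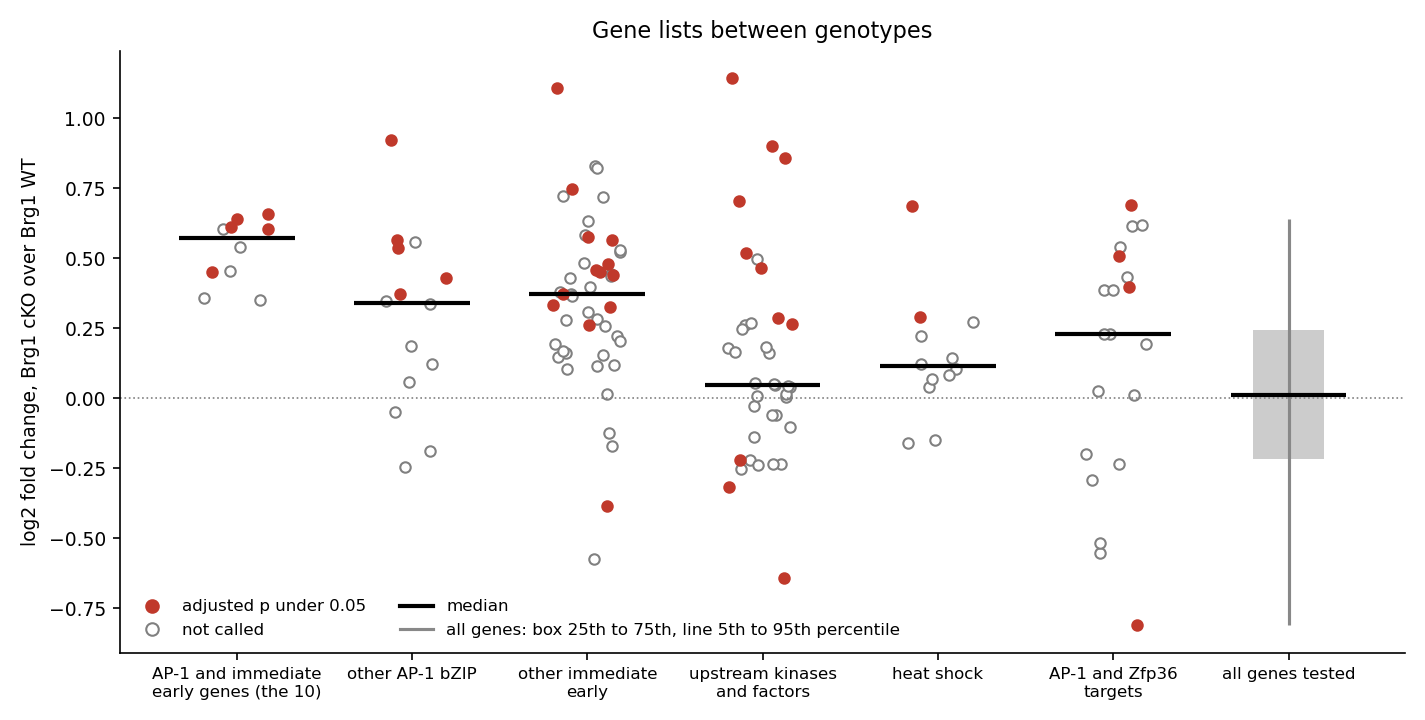
Log2 fold change, Brg1 cKO over Brg1 WT (vertical axis), of each tested gene in 6 lists, red where the adjusted p was under 0.05, with list medians as black bars and all tested genes as a box at the right. The medians are 0.57 for the 10 genes, 0.34 and 0.37 for the other AP-1 and immediate early genes, 0.046 for upstream kinases and factors, 0.11 for heat shock genes and 0.23 for AP-1 and Zfp36 targets, beside 0.013 for all genes.

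Among genes for the kinases and factors that act upstream, of 37 tested, 8 rose, 3 fell and 26 were not called, where 20.6% of all tested genes were called. The median log2 fold change was 0.046. The split depended on the scaling, with 28 higher and none lower relative to the germ cell median, 35 higher and none lower relative to the undifferentiated spermatogonia median, and 2 higher and 24 lower relative to the Sertoli cell median. Mapk13 and Mapk11, which encode p38 kinases, were 1.63-fold and 2.21-fold higher (adjusted p = 0.00632 and 0.00947, edgeR). Mapk11 had a low level of 4.75 ± 0.97 CPM in Brg1 cKO and 2.15 ± 0.52 CPM in Brg1 WT. Mkl1, a coactivator of SRF, fell to 35.1 ± 2.21 CPM in Brg1 cKO, against 43.7 ± 2.98 CPM in Brg1 WT, a direction that turned positive relative to the germ cell and undifferentiated spermatogonia medians. Srf itself, named after its values were seen, averaged 204 ± 29.4 CPM in Brg1 cKO and 147 ± 15.8 CPM in Brg1 WT (adjusted p = 0.0208).

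Heat shock genes, another class known to respond to handling of cells, had 2 of 12 higher, none lower and 10 uncalled, with a median log2 fold change of 0.11, where 20.6% of all tested genes were called. Relative to the Sertoli cell median none was called higher and 8 lower, and relative to the germ cell and undifferentiated spermatogonia medians 10 and 12 were called higher. Hspb1, a small heat shock protein gene, averaged 153 ± 25.9 CPM in Brg1 cKO and 95.2 ± 18.7 CPM in Brg1 WT (adjusted p = 0.0208, edgeR). Hspa1b was 1.22-fold higher, a direction that turned negative relative to the Sertoli cell median. Reads of this gene can be split with its near-identical neighbour Hspa1a.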

How the data were processed

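The authors deposited estimated counts, 1 row per gene symbol, for 4 Brg1 cKO and 4 Brg1 WT libraries, with no scaling for depth or length. Kallisto 0.42.5, edgeR and the build mm9 stand in the submitters' processing notes, without the annotation. No gene coordinates of mm9 are given. Since 49.4% of values were not whole, counts were rounded. Genotypes and replicate numbers came from the sample titles.

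Genes were filtered with filterByExpr, scaled by TMM and compared in edgeR 4.0.16 by its quasi-likelihood test (R 4.3.3, robust, genotype the only term). P-values were adjusted by Benjamini-Hochberg over all 16059 genes, at a threshold of 0.05. The fit was tested on simulated data. Means of log2 CPM used a prior count of 2. Standard errors were the absolute log2 fold change over the square root of F. The replicate numbers were not taken as pairs in this fit, and whether they pair the libraries is not known.

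The members and lists were chosen with earlier results of these data known, and the pachytene and spermatid list after values were seen. Named were all members, Smarca4, every called gene of the other AP-1 and immediate early lists, up to 3 called genes of the remaining lists by adjusted p, and the 5 genes closest to the members' mean profile, among those averaging 1 or more in log2 CPM and spanning 0.5 or more of its range. Further genes are given with values though outside this rule: Fosl1 and Fosl2, Srf, Tnf and Il6, Ddx4 and Clu. Alternatives were DESeq2 1.42.0, voom of limma 3.58.1, other size factors and filters, the replicate block, leaving out libraries, and marker medians taken as no change.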

Additional observations from a re-analysis of the deposited data

Results flagged for a closer look

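In 2 of 20 groups of 4 libraries, a single library stood farther from the others than the 95% limit of Dixon's test allows, where chance gives about 1 in 20. Fosb had 518 CPM in Brg1 WT replicate 1, against 905 to 968 CPM in Brg1 WT replicates 2 to 4. Ier2 had 256 CPM in Brg1 cKO replicate 1, against 207 to 212 CPM in Brg1 cKO replicates 2 to 4. Without Brg1 WT replicate 1 the log2 fold change of Fosb was 0.49, and without Brg1 cKO replicate 1 that of Ier2 was 0.53, each still called by edgeR (adjusted p = 0.0153 and 0.0499).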

How the results depend on the processing

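Of 190 values for the 10 members under 19 alternatives, 144 kept their direction and side of the threshold, 32 were no longer called, 12 became called and 2 changed sign. The 2 were Ier3 (-0.021) and Zfp36 (-0.013), relative to the Sertoli cell median. The 5 calls among members became 10 relative to the germ cell or the undifferentiated spermatogonia median, 0 relative to the Sertoli cell median, and 0 without Brg1 WT replicates 1 and 2. For the other AP-1 and immediate early genes, the 18 calls (17 higher) became 46 (46 higher), 51 (51 higher), 8 (0 higher) and 0 in the same settings. With DESeq2 they became 29 (28 higher). Over all genes, 3312 calls (1412 higher) became 9107 (8550 higher), 11047 (10641 higher), 8450 (75 higher) and 438 (96 higher). With DESeq2 4445 genes were called (2238 higher), and among members Egr1 as well (adjusted p = 0.0297). Leaving out each library gave 0 to 5 calls among members, 3 to 18 among the other AP-1 and immediate early genes, and 1608 to 3477 over all genes. Among members the number was 1 without Brg1 cKO replicate 1 (Ier2), 3 without Brg1 cKO replicate 3 and 0 without Brg1 WT replicate 2. Same-numbered libraries had correlations of -0.21, 0.13, -0.37 and 0.15 in their deviations. Brg1 cKO replicates 2 and 4 correlated best with the Brg1 WT library of their own number, and replicates 1 and 3 did not. These values cannot decide whether a shared number pairs the libraries. With the replicate block 0 members (6 at an unadjusted p under 0.05), 6 of the other AP-1 and immediate early genes and 1914 genes were called. The cause of these moves was not tested. Counting error of the members was at most 4.0%.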

Other observations

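Among 20 tested genes known as targets of AP-1 or of Zfp36, 3 rose, 1 fell and 16 were not called, with a median log2 fold change of 0.23, where 20.6% of all tested genes were called. The list pools both kinds of target, so these counts and the median describe neither kind alone. Relative to the Sertoli cell median none was called higher and 4 lower, and relative to the germ cell and undifferentiated spermatogonia medians 7 and 9 were called higher and none lower. Mmp9, a gelatinase gene, fell to 2.85 ± 0.23 CPM in Brg1 cKO, against 4.99 ± 1.25 CPM in Brg1 WT (SD, n = 4 each, adjusted p = 0.0201, edgeR quasi-likelihood test). Mmp14, a membrane-bound matrix metalloproteinase gene, averaged 146 ± 8.18 CPM in Brg1 cKO and 111 ± 16.7 CPM in Brg1 WT. Vegfa, the angiogenic growth factor gene, averaged 45.8 ± 11.0 CPM in Brg1 cKO and 28.4 ± 5.21 CPM in Brg1 WT, with overlap between the genotypes. Inflammatory transcripts that Zfp36 is known to destabilise were scarce, Tnf at 1.35 to 2.38 CPM in Brg1 cKO and 1.01 to 4.65 CPM in Brg1 WT, and Il6 had 18 counts over all 8 libraries.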
